A study of Mus musculus with 6 samples.

Results

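The genes described are 7 genes of the neurons that make vasopressin, oxytocin and the other peptides of the paraventricular nucleus: the peptide genes *Avp*, *Oxt*, *Crh* and *Trh* and the transcription factor genes *Sim1*, *Otp* and *Pou3f2*. They were taken by symbol from a table of 22322 genes, all 7 were in it, and all 7 passed the filter on low counts that left 14188 genes. Because the set was chosen by values already seen in these samples, the difference between the diets is given for it as a description. Calls from the fit across all genes are given together for it, beside the share of all genes called. A call for *Avp* with the replicate number as a block is given at the end, beside the number of genes called. The tissue was ARC, the arcuate nucleus at the base of the hypothalamus, taken by LCM (a laser cuts the wanted area out) from 20 µm frozen brain sections. The mice were male, and the wild-type mice of the study were C57BL/6J. The area where Kiss1 neurons lie was located with Kiss1-Cre mice crossed to R26R-EYFP reporter mice, and the genotype of the sequenced mice is not stated in the sources used here. The NCD group received a normal chow with 16.5% fat and the HFD group a high-fat diet with 60% fat, both from 4 weeks of age and for 16 weeks. Each group had 3 samples, and the sources used here do not state if several mice were pooled for a sample, so the errors and p-values measure the spread between samples, which may be technical. The counts of NCD1 to NCD3 summed to 15925648, 9937632 and 6882449. Those of HFD1 to HFD3 summed to 8024664, 10479778 and 5171381, so that values of low genes are least precise in HFD3.

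Magnocellular neurons of the paraventricular nucleus (PVN) and supraoptic nucleus (SON) make vasopressin, which acts on water retention and blood vessels, or oxytocin, which acts in birth, lactation and social behaviour. They send these peptides down axons to the posterior pituitary. Smaller neurons of the PVN make corticotropin-releasing hormone, encoded by *Crh*, and thyrotropin-releasing hormone, encoded by *Trh*, which drive the adrenal and thyroid axes. The transcription factors SIM1, OTP and BRN2, the last encoded by *Pou3f2*, are needed for these neurons to form. Vasopressin is also made in the suprachiasmatic nucleus, and *Otp* is expressed in the ARC itself.

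*Avp* and *Oxt* are neighbours on chromosome 2 that face each other. In GRCm38, *Oxt* runs from chr2:130576173-130577054 on the plus strand and *Avp* from chr2:130580620-130582554 on the minus strand, with 3565 bases between their ends. Each has 3 exons. The stretches that encode the hormones themselves lie in exon 1, at chr2:130582446-130582472 in *Avp* and chr2:130576267-130576293 in *Oxt*. They are shown because they tell the peptides apart, with the bases that differ in capitals, 5 of 27, and 22 identical.
Avp: tgctacTtccagaactgcccAAGAggc
Oxt: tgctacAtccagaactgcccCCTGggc
Counted from 1 at the first base, with the *Oxt* base first, the differences are A7T, C21A, C22A, T23G and G24A. Exon 2, which encodes most of the neurophysin carrier protein, differs far less. Its identity between the genes was 95.5% over 202 aligned bases, against 70.7% over 140 in exon 1 and 59.3% over 167 in exon 3.

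The transcripts share 1 identical run of at least 30 bases. It is 127 bases long, 22.0% of the 577-base *Avp* transcript and 23.6% of the 537-base *Oxt* transcript. Its 125 bases in exon 2 are the following, at chr2:130581133-130581257 in *Avp* and chr2:130576591-130576715 in *Oxt*, shown because a read that lies within them cannot be assigned to either gene by its sequence.
Avp and Oxt: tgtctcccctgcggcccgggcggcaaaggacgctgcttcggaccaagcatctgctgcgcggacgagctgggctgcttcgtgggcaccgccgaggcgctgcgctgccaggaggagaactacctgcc
How such reads were divided between the genes is not given in the sources used here. The counts of *Avp* and *Oxt* are to that extent uncertain, and a value that does not depend on the division, the sum of both, is given with them below.

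Of the 7 genes, 6 had a promoter sequence in RefSeq (GRCm38.p6). The 250 bases before the RefSeq start of the pair are shown since these genes lie side by side and differ most between the diets. Capitals mark matches, on either strand, to the E-box CACGTG in *Avp* (chr2:130582589-130582838, minus strand) and to the nuclear receptor motif AGGTCA (on the other strand TGACCT) in *Oxt* (chr2:130575919-130576168, plus strand).
Avp promoter: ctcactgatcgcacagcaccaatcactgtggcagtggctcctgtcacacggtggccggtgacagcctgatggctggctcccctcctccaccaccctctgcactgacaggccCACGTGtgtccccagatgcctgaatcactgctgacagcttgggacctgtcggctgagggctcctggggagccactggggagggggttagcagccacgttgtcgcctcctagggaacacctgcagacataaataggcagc
Oxt promoter: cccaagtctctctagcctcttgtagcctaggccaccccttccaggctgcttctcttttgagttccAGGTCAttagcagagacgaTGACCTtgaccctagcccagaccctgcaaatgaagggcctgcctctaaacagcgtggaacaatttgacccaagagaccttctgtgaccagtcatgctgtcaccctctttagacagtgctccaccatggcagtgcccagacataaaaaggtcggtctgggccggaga
The E-box match begins 139 bases before the *Avp* start, and the nuclear receptor motifs begin 185 and 166 bases before the *Oxt* start. Among 32851 promoters of the same length, 6.02% held the E-box and 14.0% the nuclear receptor motif. The latter also occurred in the *Trh* promoter, 57 bases before its start, together with a match to TGACG (on the other strand CGTCA) 96 bases before it, which 17.8% of promoters held. The cyclic AMP element TGACGTCA, present in 1.55% of promoters, was in none of the 6. These letters are a description of the windows and were chosen after earlier results were known.

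Per length, the peptide genes spanned more than 3 orders of magnitude. FPKM counts fragments relative to transcript length and to sequencing depth, which allows levels of different genes to be compared. The mean FPKM over the 6 samples was 3475 for *Avp*, 959 for *Oxt*, 54.5 for *Trh*, 7.32 for *Otp*, 6.67 for *Pou3f2*, 2.08 for *Crh* and 1.28 for *Sim1*. *Avp* was the gene with the 4th, 2nd and 12th highest FPKM of the table in NCD1, NCD2 and NCD3, and the 21st, 23rd and 31st in HFD1, HFD2 and HFD3. *Oxt* ranked 36, 25 and 60 in the NCD samples and 186, 75 and 93 in the HFD samples. The spread of each step in this order was taken within samples, as the difference of log2 FPKM between neighbours (mean ± SD, n = 6). *Avp* was above *Oxt* by 1.66 ± 0.57, in 6 of 6 samples. The steps were 4.07 ± 0.85 from *Oxt* to *Trh*, 3.07 ± 0.70 from *Trh* to *Otp*, 1.68 ± 0.27 from *Pou3f2* to *Crh* and 0.70 ± 0.18 from *Crh* to *Sim1*, all larger than their spread. *Otp* and *Pou3f2* did not differ beyond their spread (-0.04 ± 0.71), and each was the higher of the pair in 3 of 6 samples. The order was set by these same samples, so its steps are a description. *Crh* and *Sim1* had the lowest mean FPKM of the 7, while the ARC tissue held markers of that nucleus, among them *Pomc* at a mean FPKM of 667 and *Npy* at 380. *Kiss1*, whose neurons were used to locate the cut area, had 0, 27 and 32 counts in NCD1 to NCD3 and 0, 21 and 42 in HFD1 to HFD3. *Gm28040*, a gene whose annotation overlaps *Kiss1* on the same strand, had 70, 15 and 25 counts in NCD1 to NCD3 and 99, 39 and 37 in HFD1 to HFD3. Reads of these overlapping genes cannot be told apart here, so a *Kiss1* count of 0 does not show that its RNA was missing.

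**Figure D1:**
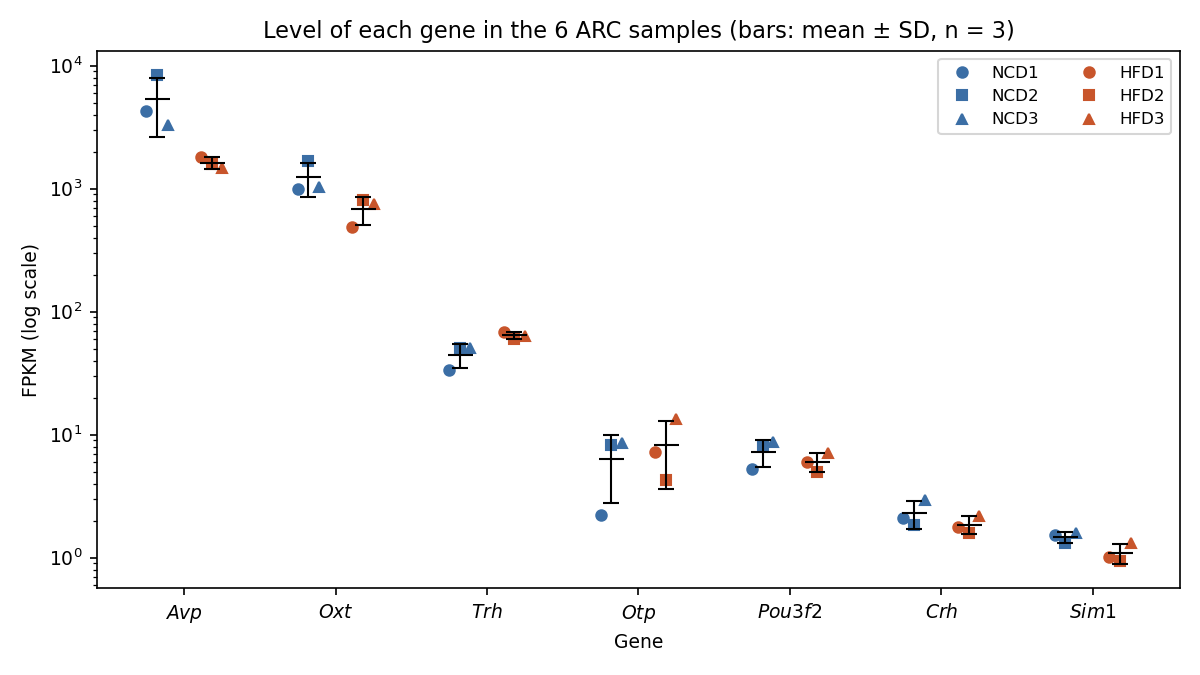
FPKM of the 7 genes (log axis) in each of the 3 NCD and 3 HFD samples, 1 marker per sample, with bars for the mean ± SD of each group. *Avp* and *Oxt* lie far above the other genes in all 6 samples, *Otp* has the widest spread, and the *Avp* values of the HFD samples, 1479 to 1822, lie below the lowest NCD value, 3282.

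*Avp*, the vasopressin precursor, had the largest difference between the diets of the 7 genes. In CPM (counts scaled to the library total, with TMM normalization), it stood at 2382, 4888 and 1961 in NCD1 to NCD3 and at 1048, 944 and 830 in HFD1 to HFD3. Every HFD sample lay below every NCD sample, and NCD2 stood far above the other two. The mean was 3077 ± 1583 CPM in NCD and 941 ± 109 in HFD (SD, n = 3 each), a 3.27-fold higher level in NCD. The fitted log2 fold change of HFD against NCD was -1.71 (SE 0.33). Without NCD2 it was -1.21, and without NCD3 -1.95, with the direction unchanged in both. Fewer vasopressin cells in the cut area and less RNA per cell cannot be told apart in bulk samples, here or for the other genes.

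*Oxt*, the oxytocin precursor, was lower in the same direction. Its CPM was 516, 915 and 571 in NCD1 to NCD3 and 262, 447 and 390 in HFD1 to HFD3. The groups again did not overlap, but the lowest NCD and the highest HFD sample were close. The mean was 668 ± 216 in NCD and 366 ± 94.96 in HFD (SD, n = 3 each), 1.82-fold higher in NCD, with a log2 fold change of -0.87 (SE 0.28) that was -0.57 without NCD2. Summing the counts of both genes gave a log2 fold change of -1.52. The ratio of *Avp* to *Oxt* counts in the same sample was 4.61, 5.34 and 3.43 in NCD1 to NCD3 and 4.01, 2.11 and 2.13 in HFD1 to HFD3. HFD1 lay among the NCD samples, so the ratio did not separate the diets.

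**Figure D2:**
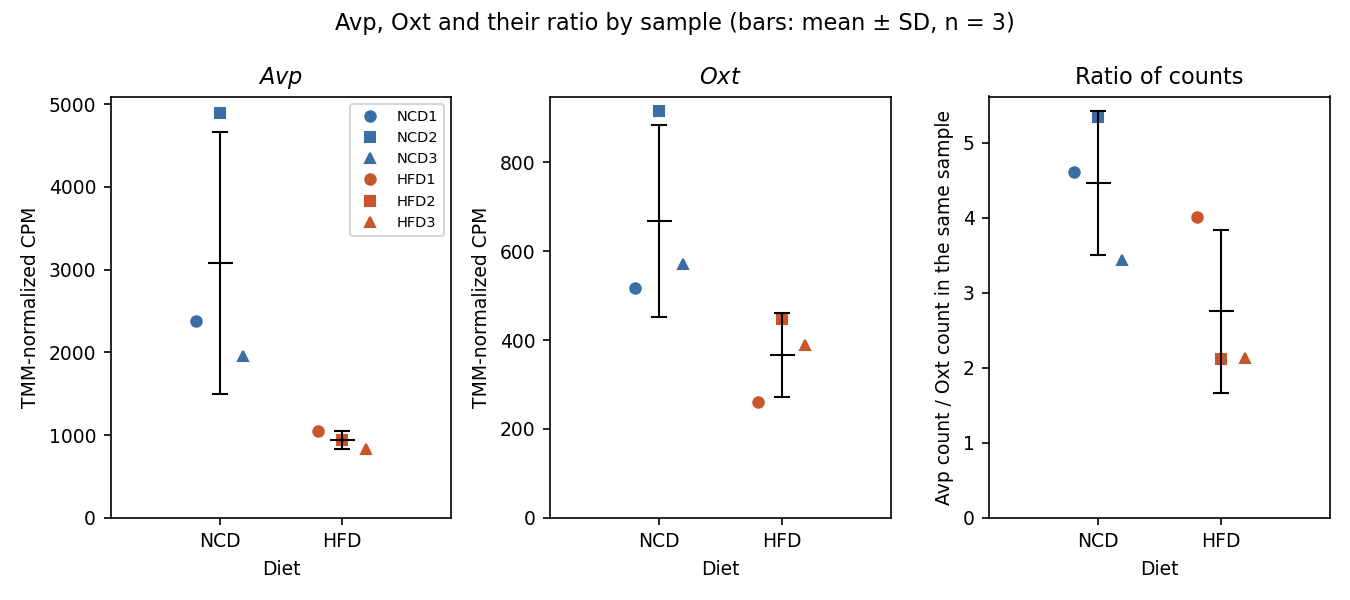
TMM-normalized CPM of *Avp* and *Oxt* and the ratio of their counts in each sample, 3 per diet, with bars for the mean ± SD. The diets do not overlap for either gene, NCD2 is the highest sample for both, and the ratio of HFD1, 4.01, lies within the NCD range of 3.43 to 5.34.

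*Trh*, the precursor of thyrotropin-releasing hormone, on GRCm38 chr6:92242061-92244650, had the opposite direction. Its CPM was 44.6, 70.8 and 72.1 in NCD1 to NCD3 and 94.1, 86.3 and 86.2 in HFD1 to HFD3. All HFD samples were above all NCD samples, and NCD1 was the lowest of the 6. The mean was 62.5 ± 15.5 in NCD and 88.8 ± 4.54 in HFD (SD, n = 3 each), 1.42-fold higher in HFD, with a log2 fold change of 0.51 (SE 0.22), which was 0.30 without NCD1.

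*Crh*, on chr3:19693401-19695396, had few counts, and a difference between the diets was not detectable at this depth. The counts were 44, 24 and 27 in NCD1 to NCD3 and 19, 22 and 15 in HFD1 to HFD3, which gave 2.65, 2.44 and 4.06 CPM in NCD and 2.36, 2.17 and 2.82 CPM in HFD. The exact 95% Poisson interval of the lowest count, 15, was 8.40 to 24.7, or 1.58 to 4.65 CPM, which covers the values of all the other samples. Such intervals cover counting error only. The means, 3.05 ± 0.882 and 2.45 ± 0.336 CPM (SD, n = 3 each), had overlapping samples, and the log2 fold change was -0.31 (SE 0.43), and -0.07 without NCD3.

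Of the transcription factor genes, *Sim1* (chr10:50894754-50989152) had the lowest FPKM of the 7. It stood at 8.61, 7.84 and 9.18 CPM in NCD1 to NCD3 and at 5.22, 5.72 and 6.02 in HFD1 to HFD3. The diets did not overlap in CPM, although in FPKM the lowest NCD and the highest HFD sample met at 1.31. The means were 8.54 ± 0.673 and 5.65 ± 0.404 CPM (SD, n = 3 each), 1.51-fold higher in NCD, with a log2 fold change of -0.60 (SE 0.29).

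*Pou3f2* (chr4:22482780-22488366) stood at 28.0, 45.3 and 49.95 CPM in NCD1 to NCD3 and at 33.7, 28.8 and 38.4 in HFD1 to HFD3. The groups overlapped, since NCD1 was the lowest of all 6 samples, and the log2 fold change was -0.29 (SE 0.25), -0.52 without NCD1 and -0.12 without NCD3. *Otp* (chr13:94875602-94885130) varied most between samples of a group. It stood at 5.66, 22.0 and 23.6 CPM in NCD1 to NCD3 and at 19.1, 11.7 and 34.6 in HFD1 to HFD3, with a log2 fold change of 0.36 (SE 0.48). The *Otp* groups overlapped and their order changed with the samples kept, the fold change being -0.10 without NCD1 and -0.13 without HFD3.

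**Figure D3:**
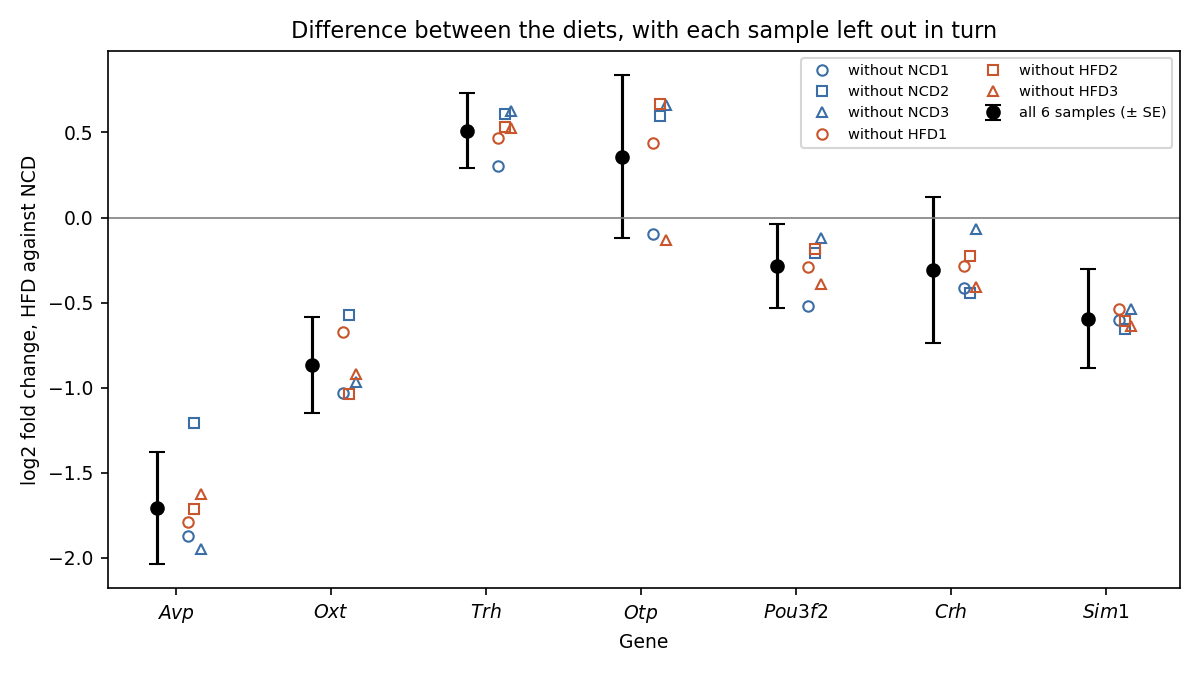
Log2 fold change of HFD against NCD for each gene from the fit to all 6 samples (black, ± SE) and from fits with 1 sample left out (open markers). *Avp* ranges from -1.95 to -1.21, and *Otp* is the gene whose fold change lies on both sides of 0.

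The background of these values over all genes tested was as follows. With edgeR's quasi-likelihood test and an adjusted p under 0.05, 0 of the 7 genes were called, where the share over all genes was 0.0564%. At an unadjusted p under 0.05, 3 passed (*Avp*, *Oxt* and *Trh*), against 2.30% of all genes, and 2 (*Avp* and *Oxt*) were also lower by over 1.5-fold, against 0.888%. DESeq2, with 18169 genes tested where edgeR had 14188, passed the same 3 at the unadjusted threshold, against 1.93% of its genes. After adjustment it called 1, *Avp*, against 0.105%. Samples of the diets did not overlap for 3 genes lower in HFD (*Avp*, *Oxt* and *Sim1*) and for 1 higher in HFD (*Trh*), where the share of all genes was 3.24% lower and, separately, 3.24% higher. Since the genes were picked on this contrast, nothing is read from these counts.

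Most genes around *Avp* and *Oxt* differed little between the diets. Within 100 kb of the pair 10 other genes are annotated, of which 7 were in the table and all 7 were tested. Of these, 4 were lower and 3 higher in HFD, and 1 had an unadjusted p under 0.05 in edgeR, against 2.30% of all genes. That gene was *Fastkd5*, which encodes a mitochondrial RNA-binding protein, with a log2 fold change of -0.91 (SE 0.30, edgeR adjusted p = 0.999). Its counts were 248, 124 and 66 in NCD1 to NCD3 and 53, 84 and 26 in HFD1 to HFD3. *Fastkd5* lies within the bounds of *Ubox5*, which had a log2 fold change of 0.10 (SE 0.26), so reads of these overlapping genes are uncertain. The other neighbours were *Ptpra* at -0.20, *Lzts3* at -0.13, *Mrps26* at -0.06, *Ddrgk1* at 0.10 and *Itpa* at 0.16. Samples of the diets did not overlap for 2 of the 7, *Fastkd5* lower and *Itpa* higher in HFD, and overlapped for the other 5. The share of all genes tested without overlap was 3.24% lower and, separately, 3.24% higher.

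**Figure D4:**
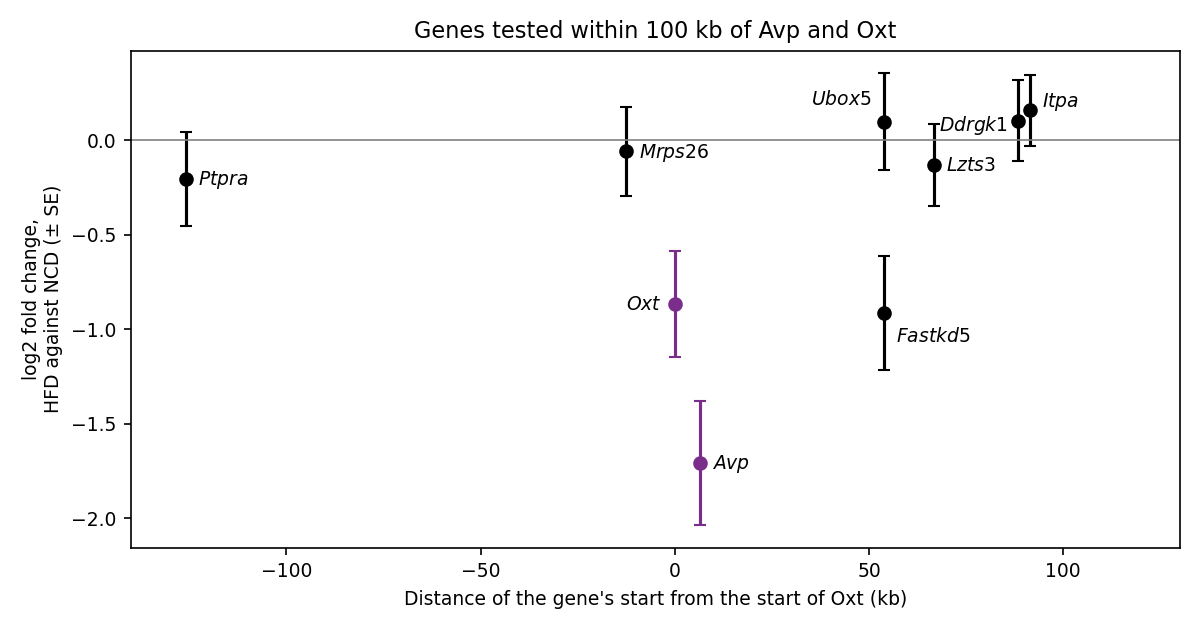
Log2 fold change of HFD against NCD (± SE) for *Avp*, *Oxt* (purple) and the 7 tested genes within 100 kb, against the distance of each gene's start from the start of *Oxt* in kb. *Avp* at -1.71, *Fastkd5* at -0.91 and *Oxt* at -0.87 lie below the others, which range from -0.20 to 0.16.

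Related genes were counted in 16 lists of 117 genes, of which 108 were tested. By edgeR, 0 had an adjusted p under 0.05, where DESeq2 called 1, *Qrfp*. At an unadjusted p under 0.05, 9 passed in edgeR and 9 in DESeq2, which is 8.33% in edgeR against 2.30% of all genes, 6 of the edgeR genes higher and 3 lower in HFD. The tools shared 8 of these, edgeR alone passing *Cga* and DESeq2 alone *Hbb-bt*. Over all genes tested, 7160 were higher and 7028 lower, with a median log2 fold change of 0.00.

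Receptors for the peptides were low and passed no threshold. Of 8 receptor genes 5 were tested, 4 higher and 1 lower in HFD, with a median log2 fold change of 0.17. *Trhr*, the receptor of thyrotropin-releasing hormone, was the most abundant. Here and in the other lists, the most abundant gene is the one with the highest mean FPKM over the 6 samples. The CPM of *Trhr* was 15.9, 7.74 and 9.33 in NCD1 to NCD3 and 13.8, 14.2 and 10.2 in HFD1 to HFD3. *Avpr1a*, a vasopressin receptor expressed in the brain, had a log2 fold change of -0.40 (SE 0.32), and *Oxtr*, the oxytocin receptor, 0.17 (SE 0.33), with overlapping groups for both. *Avpr1b* had no count in any sample, which with 3 counts as the limit allows up to 0.181 CPM in NCD1 and 0.564 CPM in HFD3.

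Of the genes for the processing, release, binding and breakdown of peptides, 1 passed the unadjusted threshold. All 19 were tested, 11 higher and 8 lower in HFD with a median of 0.06. The gene that passed was *Pcsk1*, prohormone convertase 1, which stood at 126, 88.4 and 82.6 CPM in NCD1 to NCD3 and 65.9, 81.0 and 53.1 in HFD1 to HFD3. Its groups did not overlap, and its log2 fold change was -0.57 (SE 0.23, edgeR adjusted p = 0.999). *Cadps2*, which primes dense-core vesicles for release, also had groups that did not overlap, at -0.41 (SE 0.20). *Cpe*, carboxypeptidase E and the most abundant of the list, had 2197, 2570 and 2378 CPM in NCD1 to NCD3 and 2775, 2686 and 1997 in HFD1 to HFD3, without separation.

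Other genes expressed in PVN and SON neurons went in both directions, with *Gal* higher in HFD. In bulk ARC samples the RNA of these genes cannot be assigned to those neurons. Of 12, 10 were tested, 6 higher and 4 lower in HFD, with a median of 0.07. *Gal*, which encodes the peptide galanin and was the most abundant, was the 1 that passed the unadjusted threshold. It stood at 143, 214 and 225 CPM in NCD1 to NCD3 and 341, 299 and 307 in HFD1 to HFD3, all HFD samples above all NCD samples, with a log2 fold change of 0.70 (SE 0.23, edgeR adjusted p = 0.999). The summed level of the list was 837, 753 and 789 CPM in NCD1 to NCD3 and 942, 936 and 871 in HFD1 to HFD3. Without *Gal* it was 694, 539 and 564 CPM in NCD1 to NCD3 and 600, 637 and 564 in HFD1 to HFD3, and the groups overlapped. *Creb3l1* and *Caprin2*, regulators of *Avp* transcription and of its mRNA, had log2 fold changes of 0.08 (SE 0.38) and -0.45 (SE 0.31) with overlapping groups. *Pdyn*, which encodes dynorphin and is co-expressed with vasopressin, was at -0.00 (SE 0.24). Kiss1 neurons of the ARC also make dynorphin, so the *Pdyn* value cannot be assigned to vasopressin neurons. *Arnt2*, the partner of SIM1, was at -0.19 (SE 0.21).

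Markers of nearby nuclei were compared because each of them could lie at the edge of the cut area. Of 10 suprachiasmatic genes 8 were tested, 3 higher and 5 lower, with a median of -0.10, and their summed level was 120, 146 and 138 CPM in NCD1 to NCD3 and 135, 109 and 161 in HFD1 to HFD3. *Grp*, gastrin-releasing peptide, passed the unadjusted threshold upward (1.12, SE 0.49) with overlapping groups, and *Syt10* was the most abundant by mean FPKM. *Vip*, a defining peptide of that nucleus, did not pass the filter on low counts. It was at 0.602, 0.611 and 0.752 CPM in NCD1 to NCD3 and at 0.497, 0.493 and 4.89 in HFD1 to HFD3. Of 10 ARC genes, all tested, 8 were higher and 2 lower, with a median of 0.18. Of these genes 1, *Tac2* (neurokinin B, 0.60, SE 0.27), passed, with overlapping groups. The summed level of the ARC genes was 986, 1636 and 1117 CPM in NCD1 to NCD3 and 1117, 1056 and 1264 in HFD1 to HFD3. *Pomc*, the most abundant ARC gene, was highest in NCD2, at 1209 CPM, as *Avp* and *Oxt* were, and lay between 500 and 651 in the other 5 samples.

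In the ventromedial list 3 of 3 were tested, 1 higher and 2 lower with a median of -0.19, and none passed in edgeR. *Fezf1*, its most abundant gene, was at 0.02 (SE 0.27). In the list of the dorsomedial nucleus and lateral hypothalamic area 6 of 6 were tested, 4 higher and 2 lower with a median of 0.27, and 1 passed. That gene, *Qrfp*, a feeding-related peptide of the lateral hypothalamus, stood at 4.09, 16.8 and 4.51 CPM in NCD1 to NCD3 and 1.37, 1.08 and 0.564 in HFD1 to HFD3, a log2 fold change of -3.01 (SE 0.61, edgeR adjusted p = 0.26). It was highest in NCD2, as *Avp* was. The counts of *Qrfp* in HFD1 to HFD3 were 11, 11 and 3, the last at the limit of 3 counts. *Pmch*, melanin-concentrating hormone and the most abundant of the list, was at 446, 717 and 692 CPM in NCD1 to NCD3 and at 384, 1917 and 271 in HFD1 to HFD3, so HFD2 stood far above the other HFD samples. The part of the cut area in the values of *Avp* and *Oxt* was not tested.

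**Figure D5:**
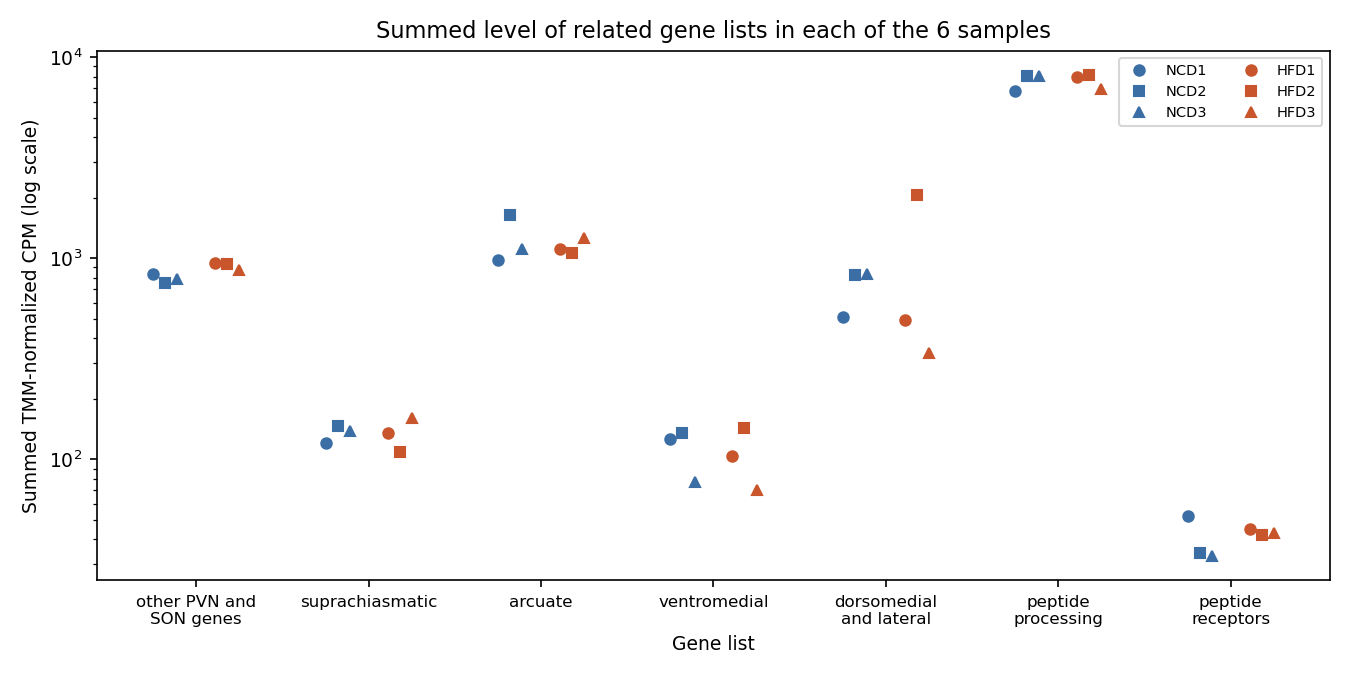
Summed TMM-normalized CPM (log axis) of the lists of other PVN and SON genes, of markers of nearby nuclei, and of peptide processing and receptor genes, 1 marker per sample. The list of other PVN and SON genes is at 871 to 942 in the 3 HFD samples and 753 to 837 in the 3 NCD samples, a separation that is absent without *Gal*, and the dorsomedial and lateral list has its highest value, 2070, in HFD2.

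Lists for other cells were counted in the same way. General neuron markers were 5 higher and 4 lower of 9 tested, with a median of 0.04, *Snap25* most abundant and *Map2* with groups that did not overlap at -0.27 (SE 0.21). Tanycyte genes were higher in 6 of 6, with a median of 0.44 and *Vim* most abundant by mean FPKM. *Crym*, a thyroid hormone-binding protein, was past the threshold at 0.89 (SE 0.30), with overlapping groups. Pituitary genes were 4 higher and 1 lower of 5 tested of 7, with a median of 0.35, and *Cga*, the glycoprotein hormone alpha subunit and the most abundant, passed in edgeR at 1.36 (SE 0.54), while *Gh* and *Prl* had no count in any sample. *Cga* did not pass in DESeq2, and it stood at 9.39, 4.17 and 14.9 CPM in NCD1 to NCD3 and 14.7, 10.6 and 47.98 in HFD1 to HFD3, where only HFD3 lay above the NCD samples. Astrocyte genes were 1 higher and 4 lower of 5, with a median of -0.14 and *Slc1a3* most abundant. *Gfap*, an astrocyte filament protein, was past the threshold at 0.88 (SE 0.35), with overlapping groups. Endothelial genes were 1 higher and 2 lower of 3, with a median of -0.02. *Cldn5*, a tight junction protein and the most abundant by mean FPKM, passed at -0.48 (SE 0.21), with groups that did not overlap.

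Oligodendrocyte genes were 1 higher and 4 lower of 5, with a median of -0.22, and *Mbp* was the most abundant. Ependymal genes were 2 higher and 2 lower of 4 (median -0.05, *Rarres2* most abundant) and microglial genes 2 higher and 3 lower of 5 (median -0.00, *Csf1r* most abundant). Red blood cell genes were lower in 5 of 5, with a median of -0.50. None passed the unadjusted threshold in edgeR, and 1, *Hbb-bt*, a beta globin gene, passed it in DESeq2 (edgeR log2 fold change -0.72, SE 0.36). Their summed level was 782, 2488 and 1966 CPM in NCD1 to NCD3 and 1687, 1156 and 824 in HFD1 to HFD3, *Hba-a2* being the most abundant. That sum was highest in NCD2, as *Avp* and *Oxt* were, and lowest in NCD1. The part of blood in the result was not tested.

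The genes whose levels followed *Avp* and *Oxt* most closely over the 6 samples are given as a description. Among the 11894 genes whose counts averaged 50 or more, those with the highest Pearson correlation of log2 CPM with *Avp* were *Tob1* (r = 0.999), *Lrp4* (0.990), *Renbp* (0.986), *Alpl* (0.982) and *Dusp10* (0.976). With *Oxt* they included *Hadh* (r = 0.985), *Ifrd1* (0.979), *Cntfr* (0.977) and *Dlst* (0.975). All 9 had HFD samples below all NCD samples, against 3.24% of all genes tested. The correlations thus hold the difference between the diets, and the points share libraries and depth. *Alpl*, alkaline phosphatase, had the largest difference of the 9, at 18.3, 23.8 and 16.1 CPM in NCD1 to NCD3 and 10.4, 10.2 and 8.09 in HFD1 to HFD3, a log2 fold change of -1.02 (SE 0.26). *Tob1*, an antiproliferative regulator, had the smaller value of -0.34 (SE 0.19), at 64.1, 75.8 and 62.4 CPM in NCD1 to NCD3 and 54.6, 53.2 and 51.6 in HFD1 to HFD3.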

How the data were processed

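RNA-seq of ARC tissue was available for 3 NCD and 3 HFD samples of male mice. As the methods state, the authors compared cleaned NovaSeq reads with ribosomal sequences in bowtie2, aligned them to the genome with HISAT2 and obtained values per gene with StringTie and RSEM. The submitters' processing notes name the build mm10. Tool versions, the annotation release and the use of strand are not given in the sources used here. The deposited table holds raw read counts per gene and sample, and FPKM values that the authors computed. The authors' mean FPKM per group equalled the mean of the sample columns assigned to it for 100% of genes. The columns of the authors' own comparison, a log2 fold change, a p-value and an FDR, were not used.

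Of 22322 identifiers, 22267 matched a symbol in GENCODE M21. The counts were filtered with edgeR's filterByExpr, normalized with TMM and tested with glmQLFit and glmQLFTest, diet as the only term (edgeR 4.0.16, R 4.3.3). SEs were derived from the F statistic. The common biological coefficient of variation was 0.244. Total counts ranged from 5171381 to 15925648, so that 3 counts, taken as the smallest detectable amount, were 0.181 to 0.564 CPM, for counting error only. Alternatives were DESeq2 1.42.0, limma 3.58.1 on log2(FPKM + 1) for a mean FPKM of at least 0.5, RLE factors, library totals, other filters, the replicate number as a block, and each sample left out. The log2 total count as a covariate and the summed *Avp* and *Oxt* counts were added after the data had been seen. Replicates of a group differed beyond sampling noise (chi-square per gene 13.1 to 72.1), so none was counted as a duplicate. Replicates come from the sample titles.

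The 7 genes and all lists were chosen with earlier results of these data known. Named were all 7 genes, the genes of each list with an unadjusted p under 0.05 or with groups that did not overlap and its most abundant gene, the genes within 100 kb of *Avp* or *Oxt*, and the 5 genes most correlated with each. The result for 1 gene that this rule names is not reported here. Other genes of the lists are named for their known part in vasopressin or oxytocin biology, or for the *Kiss1* locus. *Npy*, *Vip*, *Gh* and *Prl* are named as known markers of the ARC, the suprachiasmatic nucleus or the pituitary. All of these were named after their values were seen. Positions and exons come from GENCODE M21, promoters from RefSeq GRCm38.p6, and alignments were made with Biopython 1.88.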

Additional observations from a re-analysis of the deposited data

How the results depend on the processing

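*Avp* was lower in HFD under all 14 alternatives (log2 fold change -1.95 to -1.21), and so were *Oxt* (-1.04 to -0.57, 14), *Crh* (-0.49 to -0.07, 13), *Sim1* (-0.65 to -0.25, 14) and *Pou3f2* (-0.52 to -0.12, 14), while *Trh* was higher (0.30 to 0.63, 14). *Otp* ran from -0.31 to 0.67 and turned in 3 of 14, with -0.31 under the log2 total count as a covariate, -0.13 without HFD3 and -0.10 without NCD1. *Sim1* was -0.25 by limma on log2(FPKM + 1), a scale that understates low genes. *Crh* had no value where a mean of 50 counts was required.

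Genes with an adjusted p under 0.05 numbered 8 in edgeR, 19 by DESeq2, 15 for genes with at least 1 count, 5 by limma, 17 with the replicate block, 15 with the total count as a covariate, and 1 to 16 with 1 sample left out. The value 1 came without NCD2, without HFD1 and without HFD2, 4 without HFD3 and 16 without NCD3. Genes with p under 0.05 and over 1.5-fold numbered 270, with 427 for genes with at least 1 count, 179 where a mean of 50 counts was required, and 195 without HFD1 to 982 without NCD3 (606 without HFD2). List genes with p under 0.05 numbered 9, with 15 under the replicate block and 4 (without NCD2 or HFD1) to 17 (without NCD3) with 1 sample left out, 5 without HFD3. The cause was not tested.

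With the replicate block, *Avp* was -1.59 and *Oxt* -0.86, and *Avp* was 1 of the 17 genes with an adjusted p under 0.05 in edgeR, from which nothing is read since it was chosen on this contrast. Same-numbered samples correlated at -0.01, 0.13 and 0.39 in their deviations from the group means. NCD2 and NCD3 each correlated best with the HFD sample of the same number, but NCD1 correlated best with HFD2 (0.33). A pairing was thus not established, and the values are given without the block. Counts of *Crh*, *Sim1* and the receptors were low, which adds counting error, and 3 samples a group limit every value.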
